A study of Arabidopsis thaliana with 12 samples.

Results

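The gun5-1 seedlings were compared with wild-type Col-0 seedlings, both grown on norflurazon, across all genes of the transcriptome. The comparison rests on 6 of the 12 RNA sequencing libraries of the study: 3 of gun5-1 and 3 of Col-0. The other 6 came from the mutants gun1-1 and gun4-1, which were set against the same Col-0 libraries. Every library was made from Arabidopsis thaliana in the Col-0 background, from whole seedlings aged 5 days, raised in continuous light of 100 µE on medium with 5 µM norflurazon. No group without the herbicide was analysed here, so every difference is one between genotypes that were all bleached by it. The protocols name piperonylic acid for gun5-1, but no sample label of these libraries carries it. The series text calls the libraries biological triplicates and speaks of leaf RNA where the sample labels give whole seedlings.

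Norflurazon blocks carotenoid synthesis, and without carotenoids the plastids of illuminated seedlings are destroyed by light. Wild-type nuclei then shut down most genes for photosynthesis, whereas genomes uncoupled (gun) mutants keep some of them active, and this plastid-to-nucleus communication is called retrograde signalling. GUN5 encodes the H subunit of magnesium chelatase, the enzyme that commits protoporphyrin IX to chlorophyll, and gun5-1 carries a missense allele of it. GUN4 activates the same enzyme, and GUN1 is a plastid pentatricopeptide repeat protein.

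All levels, fold changes and q-values given here come from the authors' deposited table of Cuffdiff, which holds 1 FPKM value per group and transcript (fragments scaled to transcript length and to library size). Levels of single libraries are not in it, so no spread between replicates and no depth could be stated. For each of 38093 gene codes the transcript with the largest mean of both FPKM values was taken, and 18558 codes had a tested one. A gene was called where the authors' q was under 0.05. Log2 fold changes are of gun5-1 over Col-0, and their standard error (SE) was derived from the authors' statistic and p-value.

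Of the tested genes, 3046 were higher (16.4%) and 2430 lower (13.1%) in gun5-1. At least a 2-fold change was reached by 917 of the higher and 611 of the lower genes, and at least an 8-fold change by 37 and 39. The median log2 fold change of all tested genes was -0.01, and the bulk lay between the 5th percentile at -1.104 and the 95th at 1.12. The share of genes called higher climbed with the level: it was 3.90% of 5053 genes with a mean under 5 FPKM, 11.95% from 5 to 20, 27.6% from 20 to 100, 39.6% from 100 to 500 and 55.9% of 254 genes above 500 FPKM. Genes called lower climbed less, with 9.04%, 12.7%, 16.3% and 19.7% in the first 4 classes, and made up 11.4% above 500 FPKM. The summed FPKM of gun5-1 was 1.34 times that of Col-0, and scaling both sums to be equal would lower every log2 fold change by 0.42 (-0.42). On the 5 nuclear chromosomes, 15.8% to 17.3% of tested genes were higher and 12.5% to 13.9% were lower.

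**Figure D1:**
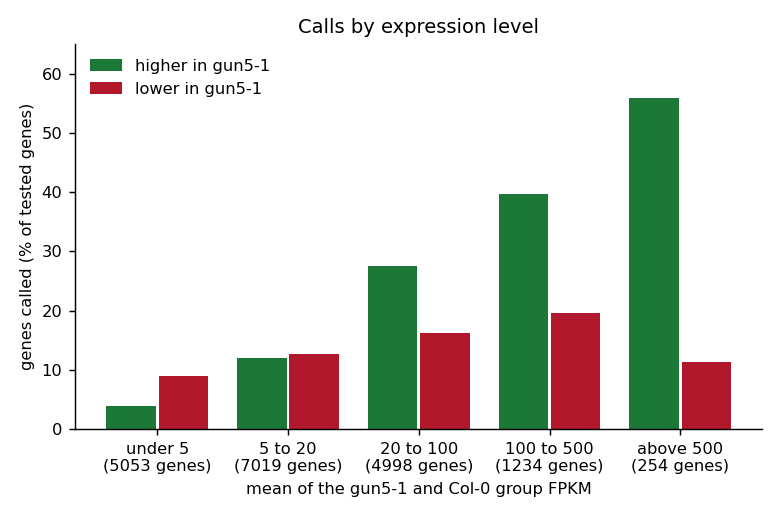
Share of tested genes called higher (green) and lower (red) in gun5-1 against Col-0, in percent, by the mean of both group FPKM values, with the number of tested genes under each class. The green bars climb from 3.90% to 55.9%, while the red bars climb from 9.04% to 19.7% over the first 4 classes and stand at 11.4% in the last.

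The mutated gene itself, GUN5 (AT5G13630, chromosome 5, 4387307 to 4392429 in the deposited coordinates, whose build is not given in the sources used here), had 683 FPKM in gun5-1 and 189 FPKM in Col-0. Its log2 fold change was 1.85 (SE 0.19, q 4.2e-04). In gun1-1 and gun4-1, set against the same Col-0 libraries, it changed by 1.75 and 0.69. As the allele changes the protein and not the transcript's presence, this level checks no label.

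The 11 sequences that follow are shown because the genes they stand before include several of the largest falls described below and share a short element. The mitochondrial dysfunction motif is known in Arabidopsis as the site through which membrane-tethered NAC factors such as NAC013 act on nuclear genes when mitochondria are disturbed. It was searched on both strands as CTTG and, after 5 further bases, CAAG or CACG, in the 250 bases upstream of each annotated gene start of the RefSeq annotation of build TAIR10.1. Capitals mark the motif in each line, with 14 bases on either side where the window allowed it, read 5′ to 3′ on the gene's strand.
AT5G53240: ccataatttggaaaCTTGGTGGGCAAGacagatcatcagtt
AT5G55270: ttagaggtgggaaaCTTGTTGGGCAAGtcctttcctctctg
AT3G46890: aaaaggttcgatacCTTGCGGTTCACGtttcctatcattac
AT5G53230: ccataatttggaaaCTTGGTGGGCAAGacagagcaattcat
SRO3: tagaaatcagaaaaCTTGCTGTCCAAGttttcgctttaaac
AT2G18193: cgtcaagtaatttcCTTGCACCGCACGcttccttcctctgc
NAC010: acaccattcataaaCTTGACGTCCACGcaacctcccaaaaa
AT3G58150: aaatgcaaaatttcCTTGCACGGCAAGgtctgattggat
UPOX: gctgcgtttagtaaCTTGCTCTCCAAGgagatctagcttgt
AT1G17960: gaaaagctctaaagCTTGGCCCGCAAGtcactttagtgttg
ADH1: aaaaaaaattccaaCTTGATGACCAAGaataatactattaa

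Among the 100 called genes with the largest falls, 96 had a promoter in that annotation, and 11 of these (11.5%) held the motif. Of 17565 tested genes with a promoter, 166 (0.945%) held it, and of all 27444 promoters 1.20%. The promoters of AT5G53240 and AT5G53230, which lie close together on chromosome 5 and encode proteins of the same DUF295 family, share most of their window. Of all 166 tested genes with the motif, 40 (24.1%) were lower and 26 (15.7%) higher, against 13.6% lower over all tested promoters. A match is a description of letters and shows no binding.

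The genes behind these promoters include UPOX (AT2G21640, chromosome 2, window 9254313 to 9254353, plus strand), a mitochondrial protein known as a marker of oxidative stress, with 52.3 FPKM in gun5-1 and 301 FPKM in Col-0 by the authors' deposited table. That is a log2 fold change of -2.53 (SE 0.19), against -0.95 in gun1-1 and -0.99 in gun4-1, which share the Col-0 libraries. The order was not the same for the next genes: AT2G18193 changed by -2.65 in gun5-1, -2.76 in gun1-1 and -0.87 in gun4-1, and AT1G17960 by -2.39, -3.40 and -2.74 in these mutants. AT2G18193, a nucleoside triphosphatase, had 23.48 FPKM in gun5-1 against 148 FPKM in Col-0, and AT1G17960, annotated as a threonyl-tRNA synthetase, 15.7 FPKM against 81.8 FPKM. AT5G55270 had 1.62 FPKM in gun5-1 and 26.0 FPKM in Col-0, a change of -4.00 (SE 0.46). SRO3, a relative of the stress regulator RCD1, stood at 2.16 FPKM in gun5-1 and 16.4 FPKM in Col-0, and ADH1, alcohol dehydrogenase, at 3.01 FPKM against 15.4 FPKM.

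The list of 12 genes of the mitochondrial stress response, of which several are known targets of the motif, had 11 tested members, 7 lower and 1 higher (median log2 fold change -0.81, with -0.01 over all tested genes). Beside UPOX, the membrane-tethered factors NAC053 (-1.28, SE 0.41) and NAC013 (-0.81, SE 0.21) were lower. NAC053 shares its deposited span with another gene. NAC017, another factor of that kind, had 26.0 FPKM in gun5-1 and 25.2 FPKM in Col-0 and was not called. AOX1A, the alternative oxidase that is the classic read-out of mitochondrial signalling, had 36.2 FPKM in gun5-1 and 70.6 FPKM in Col-0 (-0.97, SE 0.18), and the small chaperone HSP23.5 6.83 FPKM against 16.0 FPKM. The alternative NADH dehydrogenase gene NDA1 was the one higher member, with 69.6 FPKM in gun5-1 and 47.0 FPKM in Col-0. Over all 654 tested genes annotated to mitochondria, 179 (27.4%) were lower and 100 (15.3%) higher, with a median of -0.15. Among all tested genes 13.1% were lower and 16.4% higher, so the mitochondrial share higher lay near that of all genes.

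Genes of the 26S proteasome, the protease that degrades ubiquitin-tagged proteins, were lower in gun5-1 almost throughout. Its barrel-shaped core particle is built of alpha rings, which gate access, and beta rings, which hold the proteolytic sites. In the authors' deposited table all 23 genes annotated to the core were tested, and 20 were lower and 0 higher, with a median log2 fold change of -0.65 and a range from -1.24 to -0.25. At q under 0.05, 13.1% of all tested genes were lower. The alpha subunit PAD2 had 46.0 FPKM in gun5-1 and 109 FPKM in Col-0 (-1.24, SE 0.20). The beta subunits PBD2 (33.2 against 73.0 FPKM) and PBD1 (65.3 against 137 FPKM) followed, and PBA1, which carries one of the proteolytic sites and shares its span with another gene, had 99.4 FPKM in gun5-1 and 196 FPKM in Col-0. The list includes AT1G53790, which RefSeq names an F-box protein. The 3 members without a call were AT1G79210, PAF2 and AT4G15165, the last at 1.79 FPKM in gun5-1 and 2.81 FPKM in Col-0. Summed over the list, the levels were 1284 FPKM in gun5-1 and 2026 FPKM in Col-0.

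**Figure D2:**
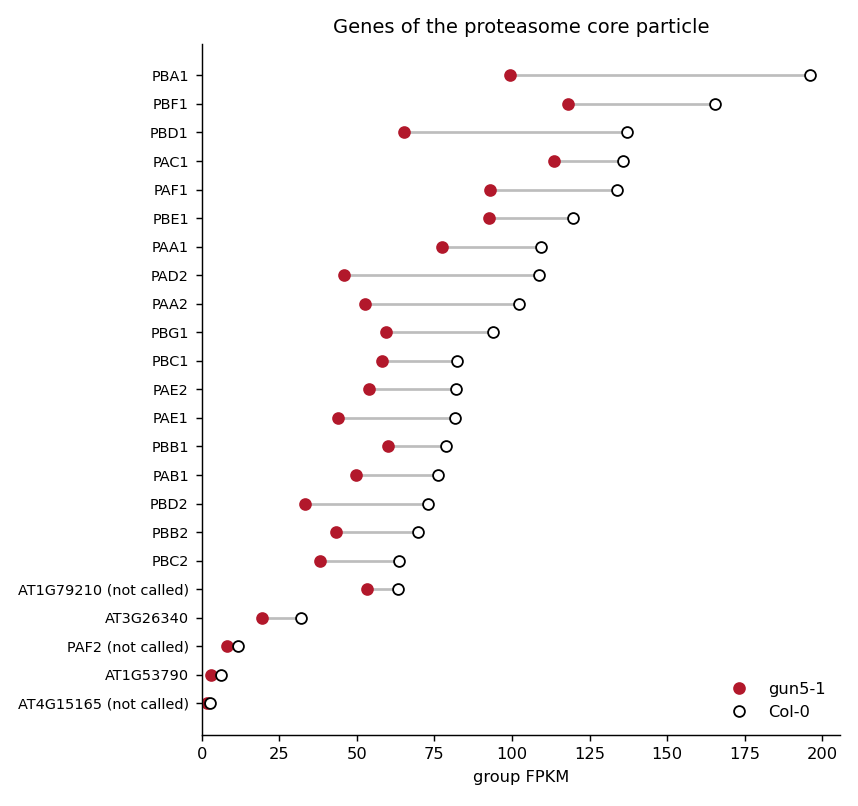
Group FPKM of the 23 genes annotated to the proteasome core particle in gun5-1 (filled red) and Col-0 (open), 1 gene per line, ordered by the Col-0 level. The filled point lies left of the open one in every line, and the 3 genes without a call are marked.

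The regulatory particle, which recognises and unfolds substrates, behaved alike in count: of 20 tested genes 15 were lower and 0 higher, with a median of -0.50. AT5G20000, an AAA-type ATPase subunit, had 26.6 FPKM in gun5-1 and 59.9 FPKM in Col-0 (-1.17, SE 0.18). The ATPase RPT2a stood at 52.0 FPKM in gun5-1 and 90.2 FPKM in Col-0, and the ubiquitin receptor RPN10 at 70.7 FPKM against 118 FPKM, in a span shared with another gene. RPN8A was the member furthest up, with 48.9 FPKM in gun5-1 and 42.4 FPKM in Col-0, and was not called. NAC053 and NAC078 are known in Arabidopsis as the pair of factors that raise proteasome genes when proteasome activity is impaired. NAC053 is given above, and NAC078 (NAC2, AT5G04410, named after its values were seen) had 35.9 FPKM in gun5-1 and 34.6 FPKM in Col-0 without a call. AtCDC48B, a relative of the segregase that delivers proteins to the proteasome, fell by 1.75 on the log2 scale (SE 0.20), to 7.69 FPKM in gun5-1 against 25.8 FPKM in Col-0.

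The same genes were set beside their changes in the other mutants, which share the Col-0 libraries. In gun1-1, 14 of the 23 core genes were higher and 1 was lower (median 0.27, with 33.7% of all tested genes called, 18.8% higher and 14.9% lower), and in gun4-1, 7 were lower and 0 higher (median -0.26, with 14.1% of tested genes called, 5.88% lower and 8.21% higher). The difference between the gun5-1 and gun1-1 changes was tested gene by gene, by dividing the gap between both log2 fold changes by their combined SE. The two-sided p came from the normal distribution and was adjusted by the method of Benjamini and Hochberg over 18324 genes. This test was chosen after the values were seen, the tables were scaled separately by the authors, and the shared Col-0 libraries are not allowed for in the SE. At adjusted p under 0.05 the gun5-1 change lay below the gun1-1 change in 158 genes of the whole table (0.862%), and 11 of the 23 core genes were among them, as were 7 of the 20 regulatory particle genes. The gun5-1 change lay above the gun1-1 change in 0 genes of either list at adjusted p under 0.05. UPOX lay below both mutants, by -1.57 against gun1-1 (SE 0.26, adjusted p 5.1e-07) and by -1.54 against gun4-1 (SE 0.26, adjusted p 2.29e-06), by the same normal test. For AT5G20000 the difference was -1.84 (SE 0.25, adjusted p 1.18e-10 by this normal test). Against gun4-1, 2 core genes and 0 regulatory particle genes lay below, where 0.719% of 18357 genes did.

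**Figure D3:**
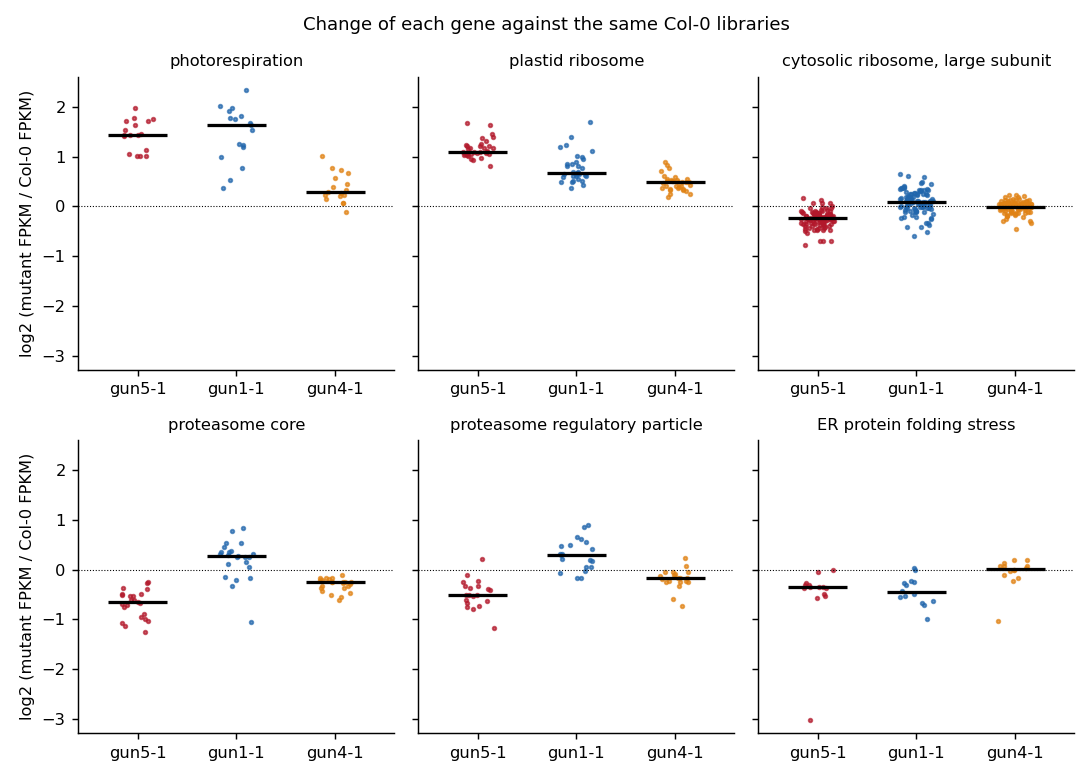
Log2 fold change of each tested gene with a finite value in gun5-1, gun1-1 and gun4-1 over the same Col-0 libraries, for 6 gene lists; each point is a gene and each bar the list's median. In the proteasome panels the gun5-1 medians are -0.65 and -0.50 and the gun1-1 medians 0.27 and 0.30.

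Cytosolic ribosomes, which translate nuclear messages, showed smaller shifts of the same direction. Of 99 tested genes of the large subunit 42 were lower and 0 higher (median -0.24), and of 78 of the small subunit 27 were lower and 0 higher (median -0.23). At q under 0.01 the large subunit count was 23. Among all tested genes 13.1% were lower and 16.4% higher at q under 0.05. The size per gene was mostly modest: RPL23AB had 77.7 FPKM in gun5-1 and 133 FPKM in Col-0 (-0.78, SE 0.26), and the small subunit protein gene AT5G39850 6.66 FPKM against 13.97 FPKM. Ribosomal proteins come from families of near-identical genes, so the split between copies is uncertain. Of 188 tested nucleolar genes, in whose compartment ribosomes are assembled, 84 were lower and 11 higher (median -0.27). HDA3, a nucleolar histone deacetylase, had 14.4 FPKM in gun5-1 and 38.6 FPKM in Col-0. In gun1-1 the large subunit list had 24 higher and 5 lower genes, with 18.8% of all tested genes higher and 14.9% lower. In gun4-1 it had 0 higher and 1 lower, with 8.21% of all tested genes higher and 5.88% lower. By the test of the difference, the gun5-1 change lay below the gun1-1 change in 2 of 99 genes, where 0.862% of all genes passed in that direction.

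A promoter of each machine is shown because both share the TGGGC core of known elements. Proteasome promoters in Arabidopsis are known to carry TGGGC boxes, and ribosomal ones site II elements (TGGGCC or TGGGCT, which contain TGGGC) and telo boxes (AAACCCTA). The motifs were searched on both strands in the 250-base windows of TAIR10.1, TGGGC after the data were seen. The first line is PAD2 (5:26438772-26439021, minus strand) with 2 site II elements in capitals. The second is AT2G44860 (2:18502563-18502812, minus strand), with its TGGGC and telo boxes in capitals. This gene, annotated to the large subunit, had 96.7 FPKM in gun5-1 and 130 FPKM in Col-0. Among called genes of the large subunit list that hold both site II and telo boxes, it had the largest fall.
PAD2: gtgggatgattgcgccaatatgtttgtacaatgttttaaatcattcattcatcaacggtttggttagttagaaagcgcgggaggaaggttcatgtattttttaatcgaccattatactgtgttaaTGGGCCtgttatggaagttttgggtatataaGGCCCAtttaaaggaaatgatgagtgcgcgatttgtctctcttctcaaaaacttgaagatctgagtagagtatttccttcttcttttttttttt
AT2G44860: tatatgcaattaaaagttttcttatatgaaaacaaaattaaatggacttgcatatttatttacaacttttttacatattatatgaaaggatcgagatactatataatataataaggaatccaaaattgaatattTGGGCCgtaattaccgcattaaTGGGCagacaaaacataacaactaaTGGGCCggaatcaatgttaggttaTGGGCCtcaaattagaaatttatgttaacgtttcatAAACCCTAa

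TGGGC stood in 13 of 23 proteasome core promoters (56.5%), in 11 of 21 of the regulatory particle (52.4%), in 71.7% of 106 large subunit and 69.0% of 84 small subunit promoters, and in 26.6% of tested and 22.7% of all promoters. The telo box stood in 27.4% of large and 13.1% of small subunit promoters, in 0 of 23 core and 3 of 21 regulatory particle promoters (14.3%), and in 3.58% of tested promoters. Every proteasome promoter counted for TGGGC could also be counted for site II, as both elements gave 13 core and 11 regulatory particle promoters. These shares hold for members whether or not they were called. TGGGC was not limited to these machines or to falling genes. It stood in 38.2% of plastid ribosome promoters, whose tested genes were all higher, 50% of mitochondrial stress and 40% of endoplasmic reticulum folding promoters. In the 100 largest falls it stood in 20.8% of promoters and in the 100 largest rises in 16.0%.

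Genes that fold proteins in the endoplasmic reticulum were lower in gun5-1. Of 14 tested members of that list 12 were lower and 0 higher (median -0.35), and 7 were lower at q under 0.01. Among all tested genes 13.1% were lower at q under 0.05. In the authors' deposited table NAC103, a transcription factor of the unfolded protein response, had 3.18 FPKM in gun5-1 and 25.7 FPKM in Col-0 (-3.01, SE 0.31). The chaperones changed less: BIP1 had 56.8 FPKM in gun5-1 and 84.4 FPKM in Col-0, and protein disulfide isomerase PDIL1-1 51.2 FPKM against 74.3 FPKM. BIP1 and BIP2 are nearly identical in sequence. BZIP60, whose spliced message switches the response on, had 47.5 FPKM in gun5-1 and 58.9 FPKM in Col-0 (-0.31, SE 0.19). NAC103 fell by 0.98 in gun1-1 and by 1.03 in gun4-1, and its gun5-1 change lay below both (adjusted p 1.85e-05 and 4.02e-05 by the normal test of the difference). It was the only 1 of the 14 genes to pass that test against either mutant. In gun1-1, 10 of the 14 were lower and 0 higher (median -0.45), with 14.9% of all tested genes lower. In gun4-1, 1 was lower and 0 higher (median 0.01), with 5.88% of all tested genes lower.

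Cytosolic heat shock protein HSP70 (AT3G12580) was among the 15 largest falls of genes with at least 5 FPKM in both groups, with 8.58 FPKM in gun5-1 and 41.6 FPKM in Col-0 (-2.28, SE 0.20). The same gene changed by 2.74 in gun1-1 and by -1.94 in gun4-1, and the difference of gun5-1 from gun1-1 was -5.01 (SE 0.27, adjusted p 3.45e-75 by the normal test). That was the widest such gap among genes with at least 5 FPKM in Col-0, gun5-1 and gun1-1. Next below it came CYP81D11, a cytochrome P450 induced by xenobiotics, with -0.71 in gun5-1 and 2.89 in gun1-1, and UGT74E2, a glucosyltransferase of indole-3-butyric acid, with -0.64 and 2.66. UGT73C1 (-0.29 and 2.202) and DOGT1 (-0.47 and 1.7996), which are further glucosyltransferases, were also among the 12 widest gaps in that direction. These genes were chosen after their values were seen.

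Other genes among the 15 largest falls encode regulators of growth and stress. SMR7 (AT3G27630), an inhibitor of cyclin-dependent kinases that is known to respond to reactive oxygen, had 6.26 FPKM in gun5-1 and 45.5 FPKM in Col-0 (-2.86, SE 0.41). The mitotic cyclin CYCB1;1 stood at 3.05 FPKM in gun5-1 and 10.5 FPKM in Col-0. Over 27 tested genes of DNA replication and the cell cycle, 6 were lower, 1 was higher and 20 were not called. The shares over all tested genes were 13.1% lower and 16.4% higher. Of the replication helicase genes, MCM2 was lower (3.62 FPKM in gun5-1, 5.07 FPKM in Col-0) and MCM3, MCM4, MCM5 and MCM6 were not called. PMZ, an AN1 zinc finger protein (7.86 FPKM in gun5-1, 42.9 FPKM in Col-0), the NAC factor ANAC087 (8.71 against 42.7 FPKM), the glutathione transferases GSTF6 (11.0 against 45.9 FPKM) and GSTF12 (7.88 against 36.1 FPKM), AT3G02480 (23.2 against 103 FPKM) and the lipid transfer protein LTP2 (148 against 636 FPKM) also belonged to this set. AT3G19508 (11.6 FPKM in gun5-1, 50.6 FPKM in Col-0) shares its span with other genes.

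EMB1030 (AT5G22800), an alanyl-tRNA synthetase, was in that set through 1 of its transcripts, with 15.2 FPKM in gun5-1 and 73.4 FPKM in Col-0 (-2.27, SE 0.43). Another transcript of the gene ran the other way, with 53.5 FPKM in gun5-1 and 4.81 FPKM in Col-0 (3.47, SE 0.69), and over the summed transcripts the change was -0.19. Of 4657 genes with 2 or more tested transcripts, 8 had transcripts called in opposite directions. They include CAT6, an amino acid transporter, with 16.5 FPKM in gun5-1 against 9.31 FPKM in Col-0 for 1 transcript and 4.97 FPKM against 10.04 FPKM for another. How the fragments were divided among overlapping transcripts was set by the authors' Cufflinks models.

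Seed proteins made up a further group. Of 14 tested seed storage and late embryogenesis genes, 4 were lower and 2 higher, with a median of -1.83, since several large changes were not called. Among all tested genes 13.1% were lower and 16.4% higher, so the count of higher seed genes lay near that share. SESA5, a seed storage albumin, had 10.099 FPKM in gun5-1 and 56.7 FPKM in Col-0 (-2.49, SE 0.31), and LEA18 7.79 FPKM against 31.7 FPKM. CRA1, a cruciferin, had 10.6 FPKM in gun5-1 and 80.4 FPKM in Col-0 with an SE of 1.40 and no call. SESA3 went the other way (16.1 FPKM in gun5-1, 8.37 FPKM in Col-0). The list summed to 79.7 FPKM in gun5-1 and 319 FPKM in Col-0. The part of remaining seed transcripts in other results was not tested.

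Genes of the cell wall and some of iron and redox handling also moved. Their counts stand against 16.4% higher and 13.1% lower over all tested genes. Of 21 tested xyloglucan endotransglucosylases, which loosen walls, 12 were lower and 1 higher (median -0.73), of 24 structural wall proteins 13 were lower and 3 higher, of 46 peroxidases 22 were lower and 7 higher, and of 21 genes of wall expansion and cellulose 9 were lower and 1 higher. XTH31 had 68.4 FPKM in gun5-1 and 143 FPKM in Col-0, expansin EXPA10 9.22 FPKM against 21.4 FPKM, and the extensin EXT6 17.6 FPKM against 39.6 FPKM. The glycine-rich protein gene GRP3S, one of the most abundant messages of Col-0, had 1998 FPKM in gun5-1 and 5619 FPKM in Col-0 (-1.49, SE 0.20). Ferritin FER1, which stores iron in plastids, had 382 FPKM in gun5-1 and 983 FPKM in Col-0 (-1.36, SE 0.20), and FER3 81.9 FPKM against 131 FPKM. The deposited span of FER1 has the same ends as that of the plastid import gene TIC56. In gun1-1 the FER1 change was 0.62, above that in gun5-1 (difference -1.99, SE 0.28, adjusted p 3.34e-10 by the normal test), and in gun4-1 it was -1.37. Over 12 tested iron genes 3 were lower and 3 higher. Of 18 antioxidant enzymes 6 were higher and 5 lower (median 0.19, and -0.22 with the FPKM sums made equal): the thylakoid ascorbate peroxidase TAPX (44.7 FPKM in gun5-1, 15.1 FPKM in Col-0) and plastid FSD1 (287 against 102 FPKM) were higher, and cytosolic APX1 (297 against 488 FPKM) was lower.

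Genes of the chloroplast filled the other side of the comparison. Among called genes with at least 5 FPKM in both groups, the largest rise was that of CA1, a plastid carbonic anhydrase in a span shared with another gene, with 1180 FPKM in gun5-1 and 6.35 FPKM in Col-0 (7.54, SE 0.29). Light-harvesting genes made up 7 of the 15 largest rises, from CAB2 (1673 FPKM in gun5-1, 32.9 FPKM in Col-0) through CAB3 (961 against 36.8 FPKM), LHCB2.3 (336 against 18.8 FPKM), LHB1B2 (3000.3 against 184 FPKM), LHCB2.2 (354 against 23.8 FPKM) and CAB1 (7790.1 against 588 FPKM) to LHCB3 (349 against 36.2 FPKM). RBCS2B (402 against 46.2 FPKM) and RBCS3B (9525 against 1362 FPKM) encode the small subunit of Rubisco, the enzyme that fixes carbon dioxide. The LHCB1 genes among them and the RBCS genes are near-identical families whose split is uncertain. PSBQ-2 of photosystem II (290.1 against 29.5 FPKM), CP12-2, which regulates the Calvin cycle (650.2 against 89.6 FPKM), and RCA, which activates Rubisco (4303 against 614 FPKM), complete the nuclear photosynthesis genes in the set. The glutamine synthetase GS2, described below, and plastid-encoded ATCG00270 (86.5 FPKM in gun5-1, 11.3 FPKM in Col-0, shared span) were its other members. Among the most abundant messages, RBCS1A had 18590 FPKM in gun5-1 and 6124 FPKM in Col-0 and PSBR of photosystem II 8139 FPKM against 3100 FPKM. The metallothionein gene MT2B, which ranked high in Col-0, had 4901 FPKM in gun5-1 and 3467 FPKM in Col-0, and the root beta-glucosidase gene PYK10 2536 FPKM against 3443 FPKM. In whole seedlings, fewer cells of a type and less RNA per cell cannot be told apart.

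**Figure D4:**
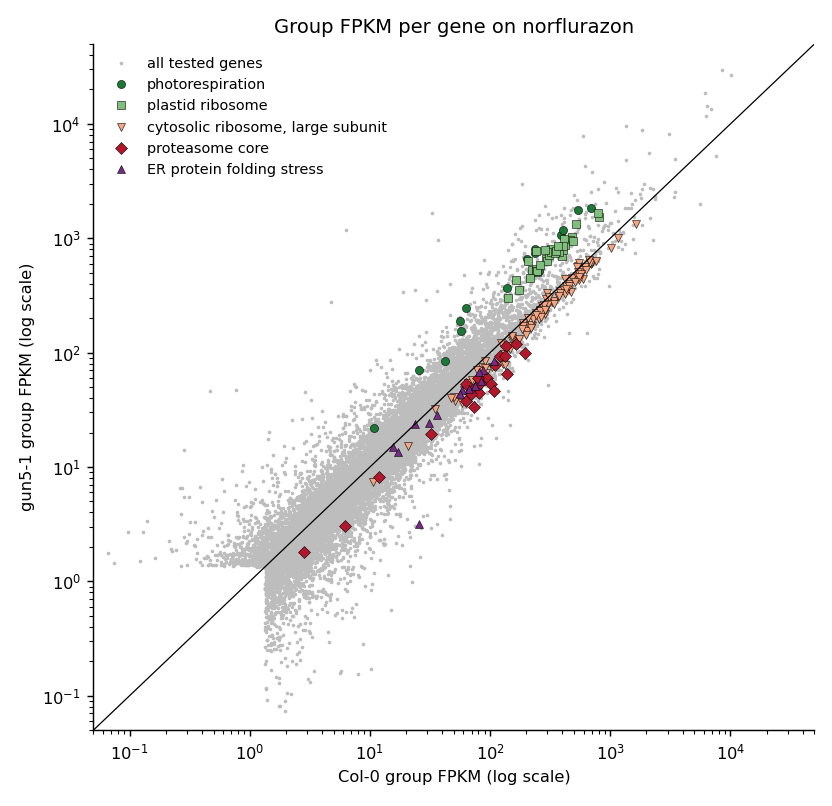
Group FPKM of each tested gene in gun5-1 (vertical) and Col-0 (horizontal), both on log scales, with 5 lists marked and the line of equal values drawn. The photorespiration and plastid ribosome genes lie above the line, and the proteasome core genes lie below it.

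The promoter of RCA is shown because its gene had one of the largest rises and it holds 2 of the elements known from light-regulated genes, the I-box (GATAAG) and the CCAATC element, in capitals (2:16573693-16573942, minus strand, TAIR10.1). The 100 called genes with the largest rises had 81 promoters, of which 22.2% held the I-box and 18.5% the CCAATC element, against 12.6% and 10.6% of tested promoters. The G-box (CACGTG) stood in 9.88% of them, in 15.6% of the promoters of the 100 largest falls and in 7.48% of tested promoters.
RCA: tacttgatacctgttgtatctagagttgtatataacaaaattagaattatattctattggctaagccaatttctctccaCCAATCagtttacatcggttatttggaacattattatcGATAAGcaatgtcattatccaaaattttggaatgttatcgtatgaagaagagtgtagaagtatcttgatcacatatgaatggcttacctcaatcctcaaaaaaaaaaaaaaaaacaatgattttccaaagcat

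Photorespiration, which recovers the carbon that Rubisco loses to oxygen across plastids, peroxisomes and mitochondria, was higher in gun5-1 by a hand-made list of its enzymes and transporters. All 17 tested genes of the 18 listed were higher, against 16.4% of all tested genes. The list's median was 1.44, with a range from 1.00 to 1.97. The RefSeq annotation term of that name, which also holds NADH dehydrogenase genes of mitochondria such as AT1G14450, had 26 tested genes, of which 9 were higher and 3 lower, with a median of -0.057. In the authors' deposited table the plastid transporter PLGG1 had 190 FPKM in gun5-1 and 56.1 FPKM in Col-0, and plastid glutamate synthase GLU1 247 FPKM against 63.1 FPKM. Peroxisomal enzymes rose too: hydroxypyruvate reductase HPR1 had 807 FPKM in gun5-1 and 236 FPKM in Col-0, and the aminotransferase GGT1 1780 FPKM against 541 FPKM. So did mitochondrial ones: GLDT of the glycine decarboxylase, in a shared span, had 662 FPKM in gun5-1 and 202 FPKM in Col-0, and SHM1 1171 FPKM against 408 FPKM. The untested member, PGLP1, had under 1 FPKM in both groups for the transcript taken. Over its summed transcripts the log2 fold change was 2.06, without a test. In gun1-1 all 17 were higher (median 1.64, with 18.8% of all tested genes higher). In gun4-1 9 were higher (median 0.30, with 8.21% of all tested genes higher). The gun5-1 change lay above that of gun4-1 in 13 of the 17 genes, where 2.06% of all genes passed in that direction, and above that of gun1-1 in 1, PLGG1.

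The machinery of the plastid itself rose, with counts set here against 16.4% higher and 13.1% lower over all tested genes. All 33 tested genes of plastid ribosomal proteins were higher, with a median of 1.097 and a smallest change of 0.81, among them RPL34 (AT1G29070, 776 FPKM in gun5-1, 242 FPKM in Col-0) and RPS20 (635 against 205 FPKM), each in a span shared with another gene. All 18 tested plastid proteases were higher (median 0.77), led by DEG5 (69.1 against 29.6 FPKM) and the thylakoid proteases VAR1 (548 against 243 FPKM) and VAR2 (580.5 against 292 FPKM). Of 9 plastid chaperones 7 were higher, of 10 partners of the plastid RNA polymerase 7 were higher and 1 lower, and of 11 plastid division genes 5 were higher. With the FPKM sums made equal the medians of these last lists were below 0 (-0.083 and -0.15). Protein import rose less evenly: 13 of 23 genes were higher and 0 lower (median 0.40, and -0.016 with the FPKM sums made equal), from TIC62 (50.9 against 14.2 FPKM) and the stromal motor CLPC1 (675 against 370 FPKM) to the channel TOC75-III (82.7 against 67.2 FPKM, in a shared span, and below 0 at -0.12 with the sums made equal), while the receptors TOC132 and TOC120 were not called. Of the 8 MORF factors, which edit organelle RNA, 4 were lower and 1, plastid MORF9, was higher (shared span, 167 FPKM in gun5-1, 103 FPKM in Col-0), and MORF8 was lower (75.6 against 128 FPKM).

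The next counts stand against 16.4% higher and 13.1% lower over all tested genes. Of 20 nuclear genes for the plastid NDH complex and cyclic electron flow, 19 were higher (median 1.48), led by PNSL3 (26.4 FPKM in gun5-1, 2.71 FPKM in Col-0). Of 19 thioredoxin and peroxiredoxin genes, which relay redox state in the plastid, 16 were higher, with CDSP32 at 293 FPKM in gun5-1 and 87.8 FPKM in Col-0 and NTRC at 212 FPKM against 75.5 FPKM. By the annotation, 173 of 203 tested thylakoid membrane genes were higher and 8 lower, 39 of 51 thylakoid lumen genes were higher and 4 lower, 26 of 30 plastoglobule genes were higher and 0 lower, 214 of 284 stroma genes were higher and 13 lower, and 198 of 295 envelope genes were higher and 17 lower. The outer envelope protein OEP6 had 950.1 FPKM in gun5-1 and 182 FPKM in Col-0 (2.38, SE 0.17).

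Metabolism that depends on the plastid followed, with counts set here against 16.4% higher and 13.1% lower over all tested genes. Of 24 genes of starch and sucrose 20 were higher and 0 lower (median 0.79). Granule-bound starch synthase GBSS1, which makes amylose, had 20.2 FPKM in gun5-1 and 1.46 FPKM in Col-0 (3.79, SE 0.37). ADG1, a subunit of ADP-glucose pyrophosphorylase, had 141 FPKM in gun5-1 and 38.7 FPKM in Col-0, and the triose phosphate transporter APE2 407 FPKM against 117 FPKM. Of 14 nitrogen genes 11 were higher and 2 lower. Plastid glutamine synthetase GS2 had 480.2 FPKM in gun5-1 and 60.5 FPKM in Col-0 (2.99, SE 0.29), and nitrate reductase NIA2 369 FPKM against 70.5 FPKM (2.39, SE 0.17). The lower ones were cytosolic glutamine synthetases, GLN1;1 (AT5G37600, 50.6 against 85.8 FPKM) and GLN1;3 (AT3G17820, 36.7 against 56.3 FPKM). Fatty acid synthesis (10 of 14 higher), plastid lipids (12 of 13 higher) and tocopherol synthesis (4 of 6 higher) had 0 lower members. FAD8, a plastid desaturase, stood at 119 FPKM in gun5-1 and 44.1 FPKM in Col-0, and VTE1, tocopherol cyclase, at 46.7 FPKM against 21.0 FPKM. Of 19 sterol genes, whose products form outside the plastid, 7 were higher and 0 lower (median 0.25, and -0.17 with the FPKM sums made equal), led by SQE6 (6.89 against 1.69 FPKM, a change of 2.03 that was 1.05 over its summed transcripts). Glucosinolate synthesis ran the other way, with 6 of 11 tested genes lower and 0 higher, among them CYP83B1 (10.9 FPKM in gun5-1, 19.4 FPKM in Col-0).

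**Figure D5:**
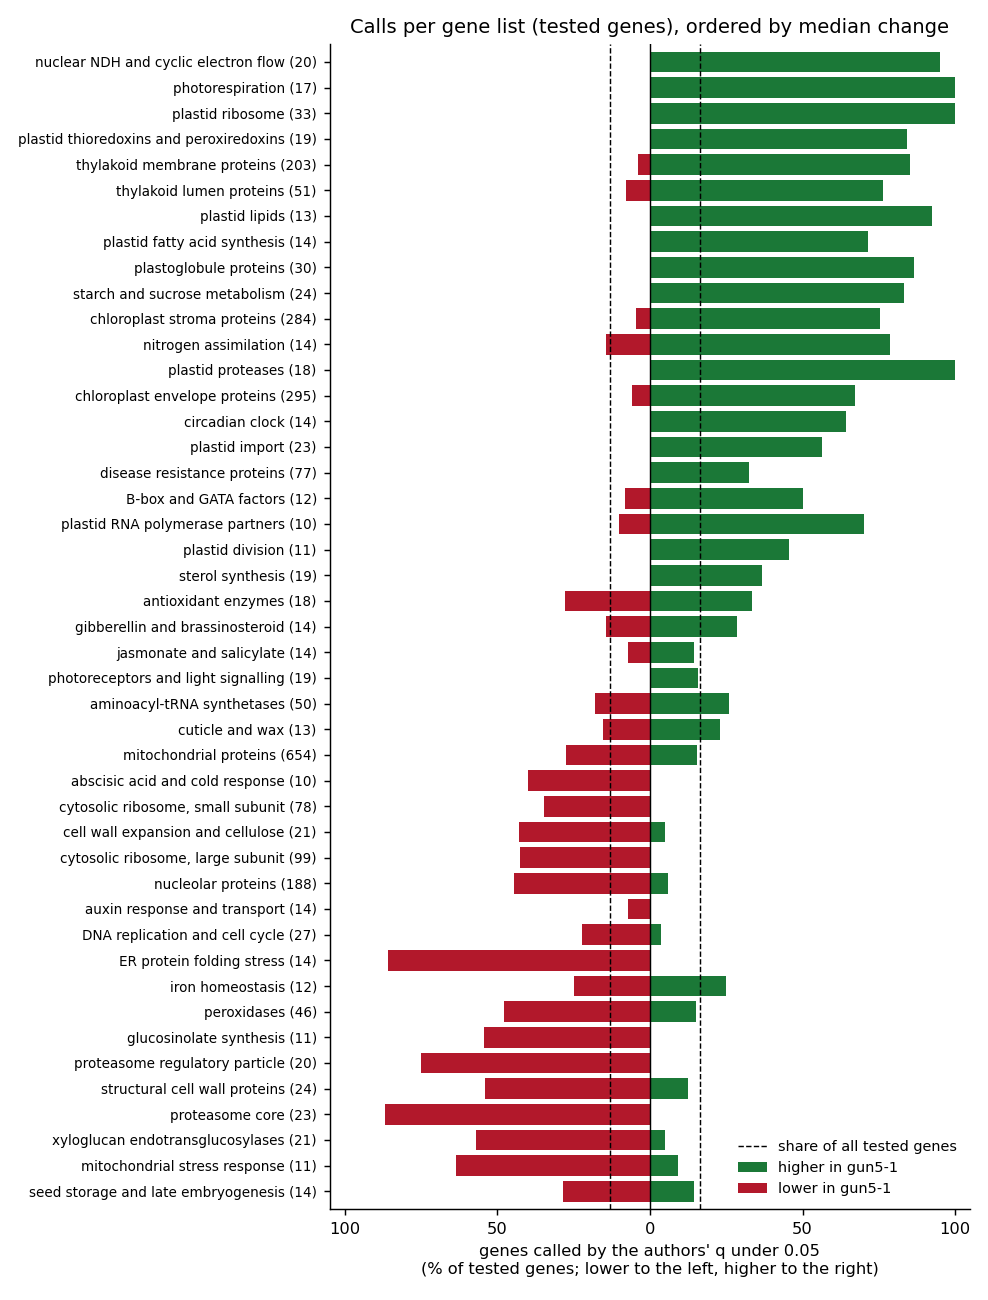
Share of tested genes called higher (green, to the right) and lower (red, to the left) in gun5-1 for each list with at least 10 tested genes (number in brackets), in percent, ordered by the list's median log2 fold change. Dashed lines mark the shares over all tested genes, 16.4% and 13.1%. Plastid lists fill the top, and the proteasome, wall, mitochondrial stress and seed lists the bottom.

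Genes of the plastid genome were higher as well: 49 of 65 tested (75.4%) were higher and 0 lower, against 16.4% higher over all tested genes. ATCG01020, which had the highest FPKM of all genes in gun5-1, stood at 29697 FPKM in gun5-1 and 8459 FPKM in Col-0 (1.81, SE 0.56). Its deposited span is short (113449 to 113607), and FPKM is scaled to transcript length, so this rank is not one of message number. In gun1-1, 39 of 58 were lower and 0 higher, with 14.9% of all tested genes lower. The gun5-1 change lay above the gun1-1 change in 39 of 53 genes tested in both (0.851% of all genes passed in that direction). In gun4-1, 42 of 66 were higher and 0 lower (median 1.64, with 1.84 in gun5-1), where 8.21% of all tested genes were higher. The gun5-1 change lay above the gun4-1 change in 3 of 62 (2.06% of all genes passed in that direction). The libraries were made with oligo(dT) selection, per the labels, and most plastid transcripts carry no stable poly(A) tail, so these levels depend on what escaped that selection.

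Regulators and hormone genes were called in shares that differed between lists, set here against 16.4% higher and 13.1% lower over all tested genes. Of 14 clock genes 9 were higher and 0 lower (median 0.65), with PRR7 at 37.7 FPKM in gun5-1 and 16.9 FPKM in Col-0 and GI at 10.8 FPKM against 5.58 FPKM. Of 12 B-box and GATA factors 6 were higher and 1 lower (median 0.38, and -0.037 with the FPKM sums made equal), with BBX14 at 53.9 FPKM in gun5-1 and 16.5 FPKM in Col-0 and BBX15 at 18.6 FPKM against 3.74 FPKM. Of 19 light signalling genes 3 were higher, PIF5, RUP2 and CRY1, the last at -0.12 with the FPKM sums made equal. Of 77 tested disease resistance genes 25 were higher and 0 lower (median 0.40, and -0.021 with the FPKM sums made equal), AT1G61300 with 10.3 FPKM in gun5-1 and 1.84 FPKM in Col-0. The 50 tested aminoacyl-tRNA synthetases had 13 higher and 9 lower members. Cytokinin response regulators ARR6 and ARR7 were lower (2 of 6), as was KIN1 of cold response (27.1 against 78.3 FPKM) with 3 more of 10 abscisic acid and cold genes. Gibberellin and brassinosteroid genes had 4 higher and 2 lower of 14, with GA3OX1, which makes active gibberellin, at 3.16 FPKM in gun5-1 and 8.99 FPKM in Col-0. Of 14 auxin genes 1, GH3.3, was lower, and of 7 ethylene genes and 5 singlet oxygen response genes 0 were called by the authors' Cuffdiff. Jasmonate and salicylate genes had 2 higher and 1 lower of 14, cuticle genes 3 higher and 2 lower of 13, and sinapate ester genes 2 higher and 1 lower of 7. These counts, like that of light signalling, lie near the shares over all tested genes.

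Marker genes of organs and cell types were looked at beside these results. All 8 root markers were tested, so the libraries hold root RNA as the whole-seedling label has it, and 3 were lower and 1 higher. They summed to 84.1 FPKM in gun5-1 and 97.9 FPKM in Col-0. EXPA18, an expansin of root hairs, had 9.92 FPKM in gun5-1 and 18.6 FPKM in Col-0. The 7 guard cell and trichome markers summed to 42.1 FPKM in gun5-1 and 29.0 FPKM in Col-0. Of the 5 tested, EPF1 and FAMA were higher and 3 were not called. GL1 was listed at 0 in Col-0. Over all tested genes, 16.4% were higher and 13.1% lower. The part of such shifts between tissues in the results above was not tested.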

How the data were processed

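RNA from 3 gun5-1 and 3 Col-0 libraries was sequenced. Per the submitters' processing notes the authors used Trimmomatic, TopHat, Cufflinks and Cuffdiff. No version, strand setting or genome build is named there. The deposited table gives FPKM per group and transcript, the log2 fold change, Cuffdiff's test score, a p-value and a q-value, all made by the authors. Depth per library is unknown, which leaves precision to the authors' test.

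Computed here with pandas 2.3.3 and scipy 1.17.1: one transcript per gene code, counts of calls, list medians (leaving out genes listed at 0), and the SE, which is the log2 fold change over the statistic, or over the normal quantile of p where that was larger. The quantile was a median of 1.73 times the statistic, so these SE exceed what the p-values imply. Scripts were tested on simulated data.

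The members and lists were chosen with earlier results of these data known: 31 lists by hand at the start, 6 more and 17 from RefSeq annotation later. Genes named were GUN5, the 15 largest rises and 15 largest falls of called genes with 5 FPKM in both groups, the 5 highest levels of called genes in each group, and the 3 largest changes per list with at least 1 FPKM, with others taken from the lists after their values were seen. Extreme promoter sets needed 1 FPKM in the higher group. RefSeq genes lay inside the deposited span for 99.98% of 29505 genes alone in their span.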

Additional observations from a re-analysis of the deposited data

How the results depend on the processing

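No paired analysis was possible because the deposited tables hold 1 value per group, so the replicate number could not serve as a block and no replicate could be left out. A threshold of at least 1 on the log2 fold change left 917 genes higher and 611 lower; a stricter q, a minimum level and other choices of transcript kept both totals within 1.5 times. Across pseudocounts, filters, centring and transcript sums, 269 values of list medians moved by less than the median SE of their genes, and the mitochondrial stress median became -0.50 on log2 of FPKM plus 1. The uncalled TOC132 became 0.042 over summed transcripts. At q under 0.01 the counts lower became 7 for endoplasmic reticulum folding, 23 for the large ribosomal subunit, 10 for the envelope, 1 for the thylakoid lumen and 5 for aminoacyl-tRNA synthetases. The counts higher became 7 for nucleolar genes and 1 each for the gibberellin, jasmonate and seed lists.

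The FPKM sum of gun5-1 was 1.34 times that of Col-0, and 10.2% of the gun5-1 sum and 6.404% of the Col-0 sum were plastid-encoded. Making the sums equal, chosen after the data were seen, lowers every log2 fold change by 0.42 (-0.42), the median of all genes included. The list medians that went from above to below 0 were those of plastid import (-0.016), gibberellin (-0.23), ethylene (-0.36), light signalling (-0.35), B-box factors (-0.037) and plastid division (-0.15). So did those of sinapate (-0.30), singlet oxygen (-0.42), polymerase partners (-0.083), antioxidants (-0.22), jasmonate (-0.30), sterols (-0.17) and disease resistance (-0.021). The named genes that changed sign were SNG1 (-0.080), GPAT8 (-0.015), CRY1 (-0.12), TOC75-III (-0.12) and the uncalled NAC078 (-0.37), NAC017 (-0.37) and RPN8A (-0.21). At adjusted p under 0.01, also added later, differences from gun1-1 below were 102 genes and 4 of the regulatory particle. Those from gun4-1 were 228 above and 80 below, with 0 in the proteasome core.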
